A study of Mus musculus with 85 samples.

Results

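The genes described here are 6 genes of the neutrophil lineage, chosen by name with earlier results of these data known: Mpo, Prtn3, Elane, Ctsg, Srgn and Ms4a3. Each is read by 1 probe set (1415960_at, 1419669_at, 1422928_at, 1419594_at, 1417426_at and 1420572_at, in that order), so 6 probe sets stand for 6 of the 18194 genes that the array names singly. A gene was called found in a cell where its log2 signal was above 5, and measured where it was found in at least 3 cells. Of 10695 measured genes 5 are in the set, and Ctsg, found in 0 of 84 cells, is not among them.

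The study took 85 single mouse cells by cell sorting and put the amplified polyA RNA of each on its own Affymetrix array, to follow how blood stem and progenitor cells arise from endothelium. Hemogenic endothelial cells (HEC, n = 7) and other endothelial cells (EC, n = 7) came from the caudal tissue of E10.5 embryos of the eR1-GFP genotype, in which an enhancer of Runx1 drives green fluorescent protein; both were CD31+, Ter119-, CD45- and CD41-, and HEC were GFP+ where EC were GFP-. Cluster cells, the round cells that bud from the aortic wall, were sorted as c-Kit+, CD31+, CD45+ and SSEA1- from wild type embryos, 28 from the same caudal tissue at E10.5 (E10.5 clusters) and 16 from the aorta-gonad-mesonephros region at E12.5 (E12.5 clusters). Hematopoietic stem cells (HSC, 27 cells) of wild type embryos came from the fetal liver at E14.5, gated as CD150+, CD48-, c-Kit+, Sca-1+, Lin- and Mac-1+. By their labels HEC and EC differ in GFP alone. E10.5 clusters differ from HEC in genotype and gate, E12.5 from E10.5 clusters in stage and dissected tissue, and HSC from both cluster populations in stage, tissue and gate, and where several of these change at once they cannot be told apart. No label names an animal or a batch. Each population therefore counts as 1 sample: differences are given with the spread between cells, no p-value is computed, and the number of cells limits the precision.

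The signals of HSC arrays 20 and 21 had an r of 0.99, where the next closest pair of cells reached 0.86, and were averaged and counted as 1 cell, which leaves 84 cells and 26 HSC. The number of probe sets above 5 averaged 9943 for E10.5 clusters, 7820 for E12.5 clusters, 6552 for HSC, 7712 for HEC and 5905 for EC. Of 13 endothelial markers, 12 or 13 were found in each HEC. EC cell 3 had 2 of the 13, against 9 or more in the other EC. E12.5 cluster cells 3, 6 and 10 had 9 of 9 macrophage markers, and HSC cells 5 and 7 had 12 and 11 of the 13 endothelial markers. These 6 cells go against their sorted population, and several of the results that include them are also given without them.

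Neutrophil precursors at the promyelocyte stage fill their primary, or azurophil, granules with myeloperoxidase and a family of serine proteases, and later stages add the secondary and tertiary granules. Myeloperoxidase makes hypochlorous acid, the proteases digest microbial and matrix proteins, and the proteoglycan serglycin holds these basic proteins on its sulphated sugar chains. In mouse bone marrow the primary granule genes are switched on in granulocyte-monocyte progenitors, well before a neutrophil can be recognised by its shape, and Mpo RNA is a common sign of myeloid priming.

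The sequences just upstream of the 4 enzyme genes are shown because Prtn3 and Elane, which lie next to each other on chromosome 10, gave very different counts of cells, as did Mpo and Ctsg. They are the 250 bases before the annotated start, in RefSeq on GRCm38.p6, read 5′ to 3′ on the gene's own strand: Prtn3 at chr10:79879417-79879666 (plus strand), Elane at chr10:79886062-79886311 (plus), Mpo at chr11:87793534-87793783 (plus) and Ctsg at chr14:56102575-56102824 (minus). Capitals mark a match on either strand to GAGGAAG (the type of site bound by ETS factors such as PU.1), CAACGG (Myb type), TGTGGT (Runx type), TTNNGNAA (C/EBP type) or TATAA (TATA type). No match shown overlaps another.
Prtn3: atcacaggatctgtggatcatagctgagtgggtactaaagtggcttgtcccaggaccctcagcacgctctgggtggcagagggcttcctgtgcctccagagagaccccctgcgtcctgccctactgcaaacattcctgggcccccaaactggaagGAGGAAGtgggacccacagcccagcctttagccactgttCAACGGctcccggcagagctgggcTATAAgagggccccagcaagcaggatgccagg
Elane: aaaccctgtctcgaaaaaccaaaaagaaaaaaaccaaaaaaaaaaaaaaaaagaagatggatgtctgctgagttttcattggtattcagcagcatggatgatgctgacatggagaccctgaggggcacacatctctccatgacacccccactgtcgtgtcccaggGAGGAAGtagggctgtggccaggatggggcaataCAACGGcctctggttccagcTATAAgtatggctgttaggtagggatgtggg
Mpo: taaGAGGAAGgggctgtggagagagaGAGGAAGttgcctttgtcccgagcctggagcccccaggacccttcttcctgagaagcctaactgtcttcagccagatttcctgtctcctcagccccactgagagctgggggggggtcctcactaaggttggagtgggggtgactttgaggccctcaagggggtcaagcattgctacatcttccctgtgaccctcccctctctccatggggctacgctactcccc
Ctsg: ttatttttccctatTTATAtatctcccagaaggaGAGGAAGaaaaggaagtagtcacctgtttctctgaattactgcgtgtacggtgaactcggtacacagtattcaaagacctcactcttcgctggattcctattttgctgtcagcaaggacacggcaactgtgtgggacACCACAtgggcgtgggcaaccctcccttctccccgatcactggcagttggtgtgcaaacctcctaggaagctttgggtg
Prtn3 and Elane each had the ETS type, the Myb type and the TATA type of match, in this order, on the gene's strand, in Prtn3 at -95 to -89, -56 to -51 and -32 to -28 from the start and in Elane at -85 to -79, -51 to -46 and -31 to -27. Mpo had 2 matches of the ETS type and none of the others. Ctsg had 1 of the ETS type, and on the opposite strand 1 of the Runx type and 1 of the TATA type. Among 32851 promoter windows of the same length, 10.6% held the ETS type, 4.05% the Myb type, 14% the Runx type, 36.8% the C/EBP type and 22.8% the TATA type. The 3 motifs shared by Prtn3 and Elane stood in that order in 2 of the 32851 windows, those of Prtn3 and Elane. The letters were picked after the windows had been read, so these shares are descriptions, and a match is not a bound site.

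Granule genes were at background in HEC and EC apart from Srgn in 3 cells, and Mpo, Prtn3 and Srgn were high in E10.5 clusters. At later stages the genes differed from each other. Mpo and Prtn3 were found together in 27 of 28 cells in E10.5 clusters and 6 of 16 in E12.5 clusters. In fetal liver HSC, Prtn3 was found in 22 of 26 cells and Mpo in 2. Srgn was found in each cluster cell and each HSC, Ms4a3 in a minority of cells, Elane in 3 cells and Ctsg in none.

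**Figure D1:**
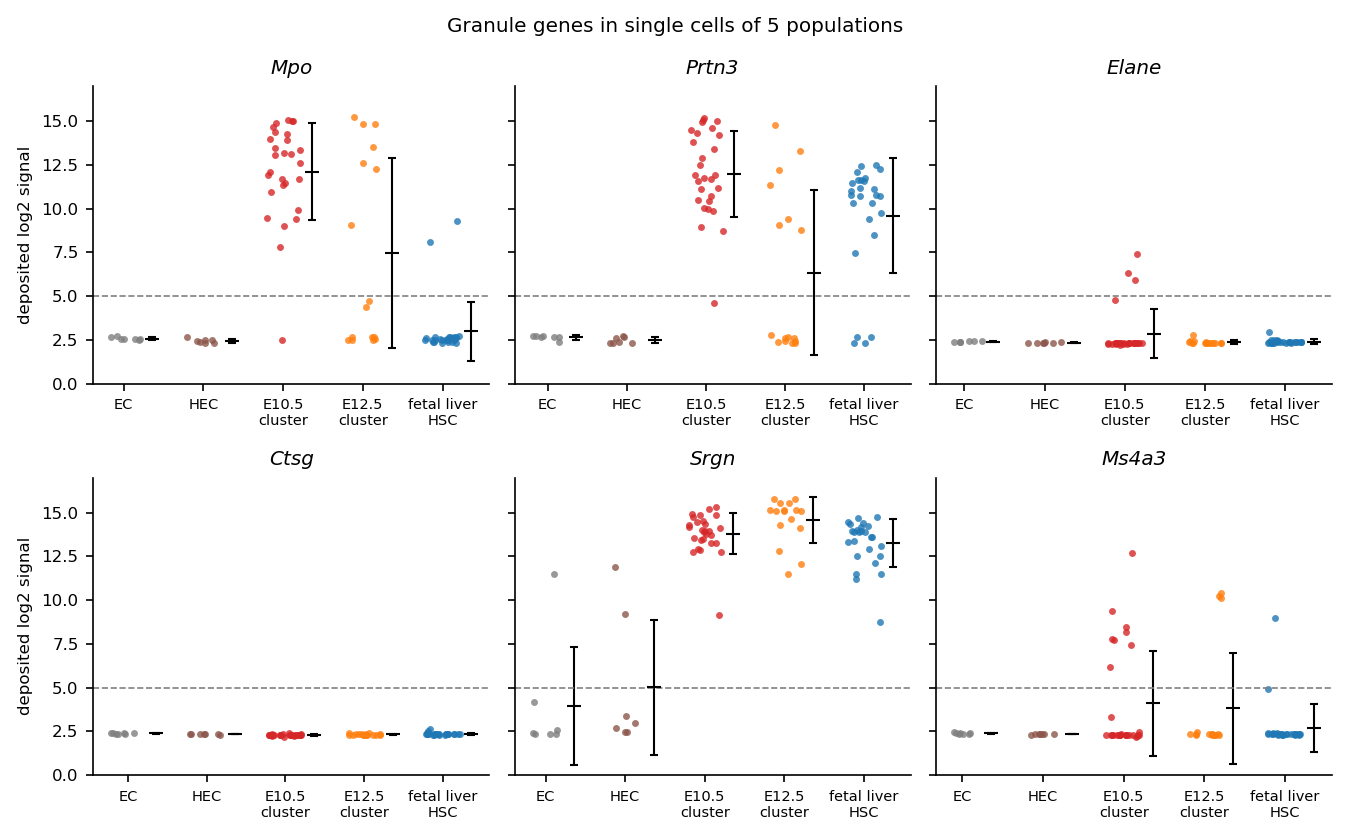
Deposited log2 signal (y axis) of the 6 granule genes in each of 84 cells, by population (x axis). Each point is 1 cell, the black bar and whiskers give the mean and the SD between cells, and the dashed line is the background limit of 5. Mpo and Prtn3 lie above the line in 27 of 28 E10.5 cluster cells, whereas in HSC Prtn3 does so in 22 of 26 cells and Mpo in 2.

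Mpo encodes myeloperoxidase. In E10.5 cluster cells its log2 signal ran from 2.49 to 15.05 with a median of 12.84, in E12.5 clusters from 2.46 to 15.22 with a median of 4.54, and in HSC from 2.33 to 9.26 with a median of 2.52. In HEC the values lay between 2.34 and 2.63, and in EC between 2.48 and 2.74. The E10.5 cluster cells were thus high except cell 2, the E12.5 cluster cells fell into 7 high and 9 low, and all but 2 HSC lay in the range of the endothelial cells or just around it.

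The share of cells with Mpo was 96.4% in E10.5 clusters (95% exact Clopper-Pearson interval 81.7 to 99.9%, counting error only), 43.8% in E12.5 clusters (19.8 to 70.1%) and 7.69% in HSC (0.946 to 25.1%). It was 0 of 7 in HEC and 0 of 7 in EC, so that either population could still hold a share of up to 42.9%. Where Mpo was found, its median was 13.49 at E12.5 (7 cells) and 13.05 at E10.5 (27 cells), and the 2 HSC were lower, at 8.10 in cell 13 and 9.26 in the averaged cell, whose arrays read 9.22 and 9.31. E12.5 cells 1 and 9 stood just under the limit at 4.37 and 4.71.

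By mean level the order of Mpo was E10.5 cluster cells (12.11 ± 2.76, SD over 28 cells), E12.5 cluster cells (7.46 ± 5.43, 16 cells), HSC (3.0 ± 1.69, 26 cells), EC (2.57 ± 0.09, 7 cells) and HEC (2.43 ± 0.11, 7 cells). No gap between neighbours in this order exceeded the larger of the 2 SDs, other than that of 0.14 between EC and HEC, which both lay at background.

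Prtn3 encodes proteinase 3, a serine protease of the same granules. Its signal in E10.5 clusters ran from 4.63 to 15.15 with a median of 11.81, in E12.5 clusters from 2.31 to 14.77 with a median of 2.71, and in HSC from 2.31 to 12.48 with a median of 10.78. HEC lay between 2.31 and 2.71, and EC between 2.35 and 2.73. Prtn3 was thus above all endothelial cells in 22 of 26 HSC, where Mpo was so in 2, and these 22 HSC overlapped the range of the E10.5 cluster cells.

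Prtn3 was found in 96.4% of cells in E10.5 clusters (81.7 to 99.9%), 43.8% of cells in E12.5 clusters (19.8 to 70.1%) and 84.6% of HSC (65.1 to 95.6%). Its mean was 11.97 ± 2.45 in E10.5 clusters, 6.33 ± 4.72 in E12.5 clusters, 9.58 ± 3.29 in HSC, 2.47 ± 0.18 in HEC and 2.64 ± 0.13 in EC. Ordered from high to low these are E10.5 cluster cells, HSC, E12.5 cluster cells, EC and HEC, and no neighbouring pair differed by more than its larger SD. The HSC cells with Prtn3 had a median of 11.06, and the 4 HSC without it (cells 1, 5, 7 and 23) read 2.31 to 2.66.

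Srgn encodes serglycin, which is made by many blood cells besides neutrophils. In E10.5 cluster cells its signal ran from 9.12 to 15.34 with a median of 13.95, in E12.5 clusters from 11.49 to 15.80 with a median of 15.09, and in HSC from 8.75 to 14.74 with a median of 13.74. It was found in 28 of 28, 16 of 16 and 26 of 26 of these cells. The lowest E10.5 cluster cell was cell 2, the cell without Mpo and Prtn3; the 3 lowest E12.5 cluster cells were cells 10, 6 and 3, and the 2 lowest HSC were cells 7 and 5.

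In endothelium Srgn was found in HEC cell 6 at 11.87 and HEC cell 2 at 9.21, and in EC cell 1 at 11.48, while the other HEC read between 2.45 and 3.36 and the other EC between 2.32 and 4.18. Its mean was highest in E12.5 clusters (14.55 ± 1.31), then E10.5 cluster cells (13.80 ± 1.17), HSC (13.25 ± 1.36), HEC (5.00 ± 3.87) and EC (3.95 ± 3.39). The gap of 8.25 between HSC and HEC was the only one in this order larger than the larger SD.

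Ms4a3 encodes a membrane protein that in mice marks granulocyte-monocyte progenitors. It was found in 8 of 28 cells in E10.5 clusters, at 6.17 to 12.68, in 3 of 16 in E12.5 clusters, at 10.09, 10.21 and 10.40, and in 1 of 26 HSC, at 8.95, with 0 of 7 HEC and 0 of 7 EC. The shares were 28.6% (13.2 to 48.7%), 18.8% (4.05 to 45.6%) and 3.85% (0.0973 to 19.6%), and these intervals overlap. The median was at background in each population (2.31 in E10.5 clusters, 2.34 in E12.5 clusters and 2.35 in HSC), so the means of 4.09 ± 2.99, 3.81 ± 3.19 and 2.70 ± 1.37 describe a few high cells.

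Elane encodes neutrophil elastase, a serine protease related to proteinase 3, and was found in 3 of 28 E10.5 cluster cells: cell 7 at 7.38, cell 25 at 6.32 and cell 27 at 5.91. Cell 18 lay just under the limit at 4.79. The highest value was 2.77 among E12.5 cluster cells, 2.92 among HSC, 2.36 among HEC and 2.43 among EC. Counts of 0 allow a share of up to 18.8% in E12.5 clusters and 11.5% in HSC.

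Ctsg encodes cathepsin G, and its probe set read 2.20 to 2.65 over all 84 cells. A count of 0 of 28 allows a share of up to 10.7% in E10.5 clusters. A probe set that is found in no cell gives no sign here that it can detect its gene, and its sensitivity was not tested.

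Neighbouring populations were then compared by the difference of their mean log2 signals, with 1 log2 unit as the size called a change. Between HEC and EC, 1 of the 6 genes was higher and none lower, beside 45.9% of all measured genes higher, 7.36% lower and 53.3% changed either way. That gene was Srgn, at 5.00 in HEC and 3.95 in EC, a difference of 1.05. It rested on single cells: the difference was -0.09 without HEC cell 6, 0.35 without HEC cell 2 and 2.31 without EC cell 1. Over all measured genes the median difference was 0.82, and with the cells shifted to an equal median signal, which puts that median at -0.15, Srgn differed by 0.08. This shift moves every value of a cell by the same amount, background values too. It therefore cannot check a gene that is at background in most of the cells compared, as Srgn is here. The other 5 genes were at background in both.

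Between E10.5 cluster cells and HEC, 4 of the 6 genes were higher and none lower, beside 43.1% of all measured genes higher, 15.7% lower and 58.8% changed either way. Mpo differed by 9.68, rank 4 from the highest among 10695 genes, Prtn3 by 9.50 at rank 8, and Srgn by 8.80 at rank 10. As the genes were picked with earlier results of these data known, ranks here and below are descriptions only. Ms4a3 differed by 1.77 and Elane by 0.50, in both cases through the few cells named above. The median over all measured genes was 0.71, and 1.22 with the cells shifted to an equal median signal, where Elane differed by 1.01. As most of these cells are at background for Elane, that value mainly reflects shifted background and is no check of the difference. Over all 28 E10.5 cluster cells and 7 HEC, Prtn3 did not overlap (4.63 or more in E10.5 clusters, 2.71 or less in HEC). The share of all measured genes without overlap was not counted, so whether Prtn3 stands out in this is not known. Mpo and Srgn overlapped through E10.5 cluster cell 2, which read 2.49 for Mpo, inside the HEC range, and 9.12 for Srgn, below HEC cells 2 and 6.

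Between E12.5 and E10.5 cluster cells, none of the 6 genes was higher and 2 were lower, beside 5.47% of measured genes higher, 39.9% lower and 45.4% changed either way. Prtn3 fell by 5.63, rank 4 from the lowest of 10695, and Mpo by 4.66 at rank 26. Srgn differed by 0.75, Ms4a3 by -0.28 and Elane by -0.48. Without the 3 E12.5 cells that carried all macrophage markers, 7 of 13 cells had Mpo (53.8%) and 7 of 13 had Prtn3, the falls were 3.53 for Mpo and 4.76 for Prtn3, and Srgn was higher by 1.31. With equal distributions in all cells (quantile normalization), the differences were -3.61 for Mpo, -4.99 for Prtn3 and 1.02 for Srgn. The number of probe sets above 5 moved with Mpo at E12.5, with a median of 9210 in the 7 cells with Mpo and 7351 in the 9 without (7338 in 6 when the 3 cells with all macrophage markers are left out), and its part in the result was not tested.

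Between HSC and E12.5 cluster cells, 1 of the 6 genes was higher and 3 were lower, beside 7.91% of measured genes higher, 36.9% lower and 44.8% changed either way. Prtn3 was higher by 3.25, which placed it at rank 63 from the highest of 10695 genes. Mpo was lower by 4.46, Srgn by 1.29 and Ms4a3 by 1.12. Without the 6 cells that go against their population, the differences were 2.97 for Prtn3, -5.55 for Mpo, -1.58 for Srgn and -1.43 for Ms4a3. After quantile normalization the differences were -0.28 for Srgn and -0.90 for Ms4a3. That of Ms4a3 was -0.68, -0.70 or -0.69 when E12.5 cell 2, 5 or 15 was left out, so each of the 3 cells alone decided its call.

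Between HSC and E10.5 cluster cells, none of the 6 genes was higher and 3 were lower, beside 5.01% of measured genes higher, 55.5% lower and 60.5% changed either way. Mpo fell by 9.12, rank 2 from the lowest of all measured genes. Prtn3 was lower by 2.38, which was rank 3243 from the lowest and lay nearer the median of all measured genes, -1.29. Ms4a3 was lower by 1.40, and Srgn and Elane by 0.54 and 0.44. After quantile normalization, with the overall median at -0.04, Mpo was lower by 7.88 and Prtn3 by 1.11, Ms4a3 by 0.72, and Srgn was higher by 0.74. Without HSC cells 5 and 7, Prtn3 was found in 22 of 24 HSC (91.7%) and its difference from E10.5 cluster cells was -1.79.

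Cells differed in how many of the 6 genes they held. The E10.5 cluster had 17 cells with 3 genes, 9 with 4 and 1 with 5, and cell 2 had Srgn alone. The E12.5 cluster had 8 cells with 1 gene, 2 with 2, 3 with 3 and 3 with 4. Among HSC 4 cells had 1 gene, 19 had 2 and 3 had 3. No HEC or EC had more than 1, and 5 of 7 HEC and 6 of 7 EC had none. E10.5 cluster cell 27, with the 5 genes, had the highest Prtn3 and the highest Ms4a3 of all cells, at 15.15 and 12.68, and it read 15.05 for Mpo and 14.90 for Srgn.

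**Figure D2:**
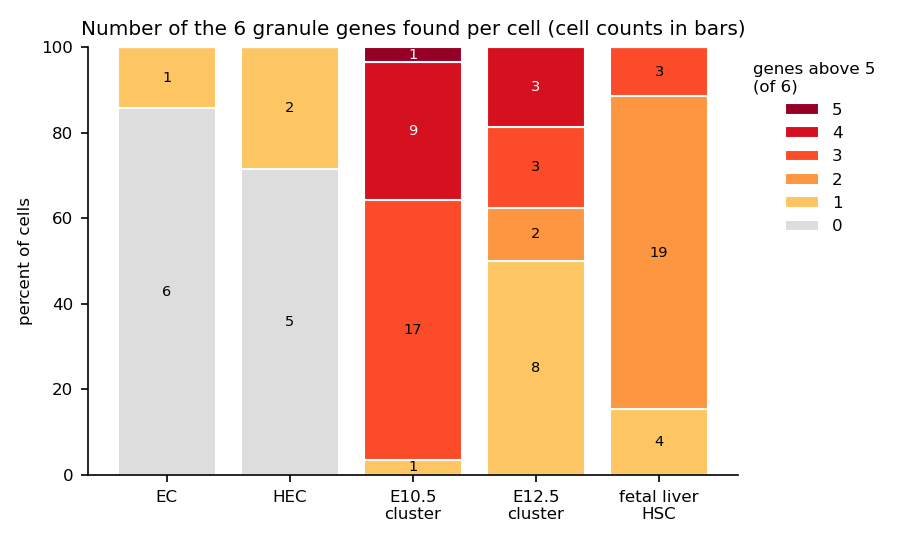
Percent of cells (y axis) in each population (x axis) by the number of the 6 granule genes above the limit of 5, with the number of cells printed in each bar segment. The most frequent number is 3 in E10.5 clusters (17 of 28), 1 in E12.5 clusters (8 of 16), 2 in HSC (19 of 26) and 0 in HEC and EC.

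In the E10.5 cluster Mpo and Prtn3 were both found in 27 cells and neither in cell 2, where Prtn3 stood just under the limit at 4.63. In the E12.5 cluster both were found in 6 cells (2, 4, 5, 7, 12 and 15), Mpo without Prtn3 in cell 16 at 12.26, Prtn3 without Mpo in cell 11 at 9.42, and neither in 8. In HSC both were found in 2 cells, Prtn3 without Mpo in 20 and neither in 4. No HSC had Mpo without Prtn3. Each of the 8 E10.5 and 3 E12.5 cluster cells with Ms4a3 also had Mpo and Prtn3, and the HSC with Ms4a3, cell 15, had Prtn3 but not Mpo.

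**Figure D3:**
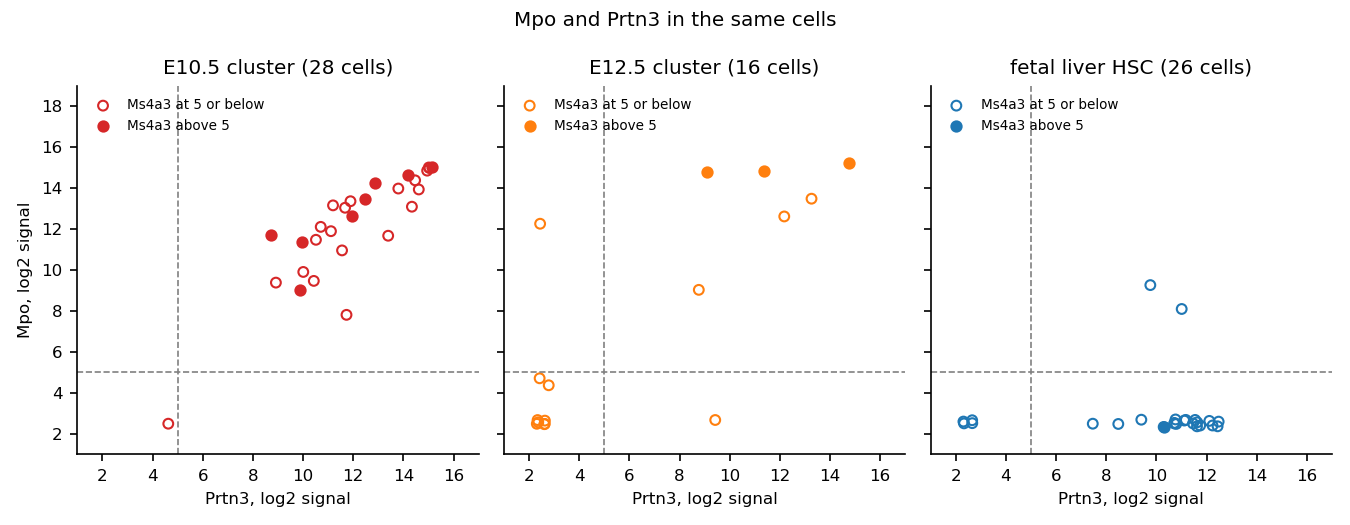
Log2 signal of Mpo (y axis) against Prtn3 (x axis) in the 28 E10.5 cluster cells, 16 E12.5 cluster cells and 26 HSC. Each point is 1 cell, filled where Ms4a3 is above 5, and dashed lines mark the limit of 5. E10.5 cluster cells lie on a diagonal, E12.5 cluster cells split into high and low cells, and 20 HSC have Prtn3 alone.

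Among the 28 E10.5 cluster cells the levels of Mpo and Prtn3 moved together (Pearson r = 0.86, Spearman rho = 0.86, and r = 0.85 without the 2 cells farthest from the median). Mpo and Srgn gave r = 0.84 and rho = 0.70, with r = 0.63 without the 2 farthest cells, and Prtn3 and Srgn gave 0.72, 0.56 and 0.48. The number of probe sets above 5, which differs from array to array, gave r = 0.52 with Mpo, 0.49 with Prtn3 and 0.42 with Srgn over the same cells. Among 26 HSC, Prtn3 and Srgn gave r = 0.41 but rho = 0.05, and r = -0.08 without the 2 farthest cells, so that relation rested on those cells. The values of 1 cell share its array and its amplification, and these are descriptions of cells, not of embryos.

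The genes beside them in the same cells differed between populations. These genes were picked with earlier results of the data known. Of the 27 E10.5 cluster cells with Mpo, 27 had Myb, a transcription factor of blood progenitors, 26 Kit, 26 Ctsc, which encodes the dipeptidase that activates the granule proteases, 24 Spi1, the gene of PU.1, and 12 Cebpa, a factor required for granulocyte formation. Of the same cells 5 had Hlf and 3 Mecom, both stem cell factors, and 3 had Gfi1, a repressor needed for neutrophil and stem cell function. Cell 2, the only one without Mpo, also had Myb, Kit, Ctsc and Spi1, and it had no Cebpa, Hlf, Mecom or Gfi1. With 1 such cell the counts describe the population and do not show which genes go with Mpo, and c-Kit was part of the gate.

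Of the 22 HSC with Prtn3, 22 had Mecom, 20 Hlf, 20 Gfi1, 17 Procr and 22 Myb, and 0 had Cebpa, 0 Serpinb1a and 0 Fcgr3. The 4 HSC without Prtn3 had Mecom in 1 cell, Hlf in 1, Gfi1 in 0, Procr in 0 and Myb in 2. Cells 5 and 7 are 2 of these 4, and the other 2 had Mecom in 1 cell, Hlf in 1 and Gfi1 in 0. Of the same 22 cells, 21 had Lyz2, 16 Ctsc, 13 Spi1 and 9 Csf3r. Of the 4 without Prtn3, 2 had Lyz2, 3 Ctsc, 2 Spi1 and 1 Csf3r, and 0 had Cebpa, Serpinb1a or Fcgr3. The HSC with Prtn3 thus held stem cell genes and some, not all, of the granulocyte genes seen in E10.5 clusters. Cebpa, Serpinb1a and Fcgr3 were missing from all HSC, with or without Prtn3, and 4 cells are too few to tie the other granulocyte genes to Prtn3.

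Of the 7 E12.5 cluster cells with Prtn3, 7 had Cpa3, a mast cell protease gene, 7 Kit, 7 Serpinb1a and 7 Plac8, 4 Cebpa and 4 Gata1, and 0 had Hlf, Mecom or Procr. Of the 9 without Prtn3, 4 had Cpa3, 6 Kit, 4 Serpinb1a, 6 Plac8, 3 Cebpa, 2 Gata1, 2 Hlf, 1 Mecom and 0 Procr. The 3 E12.5 cells with all macrophage markers had neither Mpo, Prtn3 nor Ms4a3 and are 3 of these 9. Without them, 4 of 6 cells had Cpa3, 6 Kit, 3 Serpinb1a, 6 Plac8, 0 Cebpa, 2 Gata1, 2 Hlf and 1 Mecom. Each E12.5 cluster cell with Cebpa but no Prtn3 was thus one of these 3 cells. Plac8, Kit, Mecom and Procr differed little between the cells with and without Prtn3. Among the 8 E10.5 cluster cells with Ms4a3, 6 had Cpa3, 5 Gata1 and 5 Cebpa, against 5, 5 and 7 of the 20 without it.

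Markers of other granulocytes and of macrophages were read in the same cells. Of 3 measured mast cell and basophil markers (Cpa3, Hdc and Gata2), 0 to 3 were found per cell in both cluster populations and 0 or 1 in HSC, and their summed log2 signal ran from 8.15 to 34.71 in E10.5 clusters, 9.63 to 42.75 in E12.5 clusters and 8.90 to 19.22 in HSC. Gata2, which was also listed as a stem cell marker, does not single out mast cells. It was found in 24 E10.5 and 14 E12.5 cluster cells, 22 HSC, 6 HEC and 2 EC. Cpa3 and Hdc were found in 0 HSC, so each such marker found in an HSC was Gata2. The mast cell tryptases Tpsb2 and Tpsab1 were found in 0 cells, and Mcpt8 in 1 E12.5 cluster cell. The eosinophil genes Epx, Prg2 and Prg3 were found in 0 cells, while Siglecf was found in 15 E10.5 and 9 E12.5 cluster cells and in no HSC. Of 9 measured macrophage markers, 0 to 4 were found per E10.5 cluster cell, with C1qa, C1qb and C1qc in none, 0 to 9 per E12.5 cluster cell (0 to 2 outside cells 3, 6 and 10) and 0 to 2 per HSC. Their summed log2 signal ran from 23 to 49.0 in E10.5 clusters, 23.5 to 120.5 in E12.5 clusters and 24.5 to 42.3 in HSC. The part of these cells in the granule results was not tested.

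Other genes of the same granules, from lists chosen with earlier results known, were counted beside them. Of 12 other primary granule and promyelocyte genes, 8 were measured, and between E10.5 cluster cells and HEC 7 were higher and none lower, beside 43.1% of all measured genes higher and 15.7% lower, with a median difference of 3.04 beside 0.71 over all measured genes. Plac8, a small protein abundant in myeloid cells, was higher by 7.35, and Cst7, a cystatin that inhibits proteases, by 3.80. Lyz1 and Lyz2, the near-identical lysozyme genes, were higher by 8.13 and 6.07, and their probe sets may share RNA, so the split between them is uncertain. In HSC Lyz2 was found in 23 of 26 cells and Plac8 in 10, and Cst7 in 0.

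Few genes of later stages were found, and the sensitivity of probe sets found in no cell was not tested. Of 17 secondary and tertiary granule and late neutrophil genes on the array, 4 were measured. Cyba, a subunit of the phagocyte oxidase that many cells make, was higher in E10.5 clusters than in HEC by 2.96, and Hp, haptoglobin, by 1.64, while Pglyrp1 and Padi4 differed by 0.15 and 0.05. Camp, Ngp, S100a8 and S100a9, which fill the cytoplasm and secondary granules of mature neutrophils, were found in 0 of 84 cells, and Ltf, Lcn2 and Mmp8 in 1 each. No gene of this list but Cyba was found in more than 6 cells of any population.

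Of 14 measured genes that activate, inhibit or sort granule proteases, 8 were higher in E10.5 clusters than in HEC and none lower, beside 43.1% of all measured genes higher and 15.7% lower, with a median of 1.61 beside 0.71. Between HSC and E10.5 clusters none was higher and 12 were lower, beside 55.5% of all measured genes lower, with a median of -2.51 beside -1.29. After quantile normalization 3 were higher and 7 lower, beside 20.4% of all measured genes higher and 25.8% lower. Ctsc had the largest rise, 7.07, and was found in 27 of 28 cells in E10.5 clusters, 12 of 16 in E12.5 clusters, 19 of 26 HSC, 2 of 7 HEC and 0 of 7 EC. Serpinb1a, an inhibitor of elastase, proteinase 3 and cathepsin G, was higher by 6.27 in E10.5 clusters than in HEC and found in 21 E10.5 cluster cells, 11 E12.5 cluster cells and 0 HSC. Vamp8 and Ap3b1, which act in granule release and in sorting to granules, were higher by 3.15 and 2.92.

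Myeloperoxidase carries a heme group and folds with the help of calreticulin and calnexin. Of 11 measured genes for these steps, 4 were higher and none lower in E10.5 clusters than in HEC, a share below the 43.1% of all measured genes that were higher, at a median of 0.49, below that of all measured genes (0.71). The 4 were the heme synthesis enzymes Alad (3.67), Urod (2.99), Fech (2.78) and Cpox (1.48), which red cell precursors also need. Of 12 measured genes that build the sugar chains of serglycin and other proteoglycans, 6 were higher and 2 lower, near the shares of all measured genes (43.1% higher and 15.7% lower), with a median of 1.05 beside 0.71. After quantile normalization 1 was higher and 2 lower, beside 27.9% of all measured genes higher and 22.7% lower. As deposited, Chst11, a chondroitin sulphotransferase, was higher by 2.32 and Ndst2, which sulphates heparin in mast cells, by 1.88. The 2 lower ones were Ext1, of heparan sulphate synthesis, by 5.05, and Csgalnact1, of chondroitin sulphate synthesis, by 1.94.

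Of 11 measured granulocyte and monocyte transcription factors, 6 were higher and 1 lower in E10.5 clusters than in HEC, beside 43.1% of all measured genes higher and 15.7% lower, with a median of 1.91 beside 0.71. Myb was higher by 9.53, Spi1 by 5.68 and Runx1 by 3.73, and Klf4, also an endothelial factor, was lower by 3.75. Between HSC and E10.5 cluster cells 1 was higher and 8 were lower, beside 5.01% of all measured genes higher and 55.5% lower, with a median of -2.24 beside -1.29. After quantile normalization 1 was higher and 4 lower, beside 20.4% of all measured genes higher and 25.8% lower. As deposited, the higher one was Gfi1, by 6.67, found in 20 of 26 HSC and 3 of 28 E10.5 cluster cells. Cebpa was found in 12 of 28 cells in E10.5 clusters, 7 of 16 in E12.5 clusters (4 of 13 without the 3 cells with all macrophage markers) and 0 of 26 HSC.

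Of 11 measured myeloid receptor genes, 7 were higher and 1 lower in E10.5 clusters than in HEC, beside 43.1% of all measured genes higher and 15.7% lower, with a median of 1.46 beside 0.71. After quantile normalization 6 were higher and 3 lower, beside 27.9% of all measured genes higher and 22.7% lower. As deposited, Fcgr3, a receptor for antibody, was higher by 6.84, and Csf2rb and Csf2ra, the GM-CSF receptor chains, by 6.12 and 5.07. Csf3r, the receptor for G-CSF, the growth factor of neutrophils, was higher by 3.99, and was found in 21 of 28 cells in E10.5 clusters, 5 of 16 in E12.5 clusters (3 of 13 without the same 3 cells) and 10 of 26 HSC. Fcgr3 was found in 21 E10.5 cluster cells, 14 E12.5 cluster cells and 0 HSC.

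**Figure D4:**
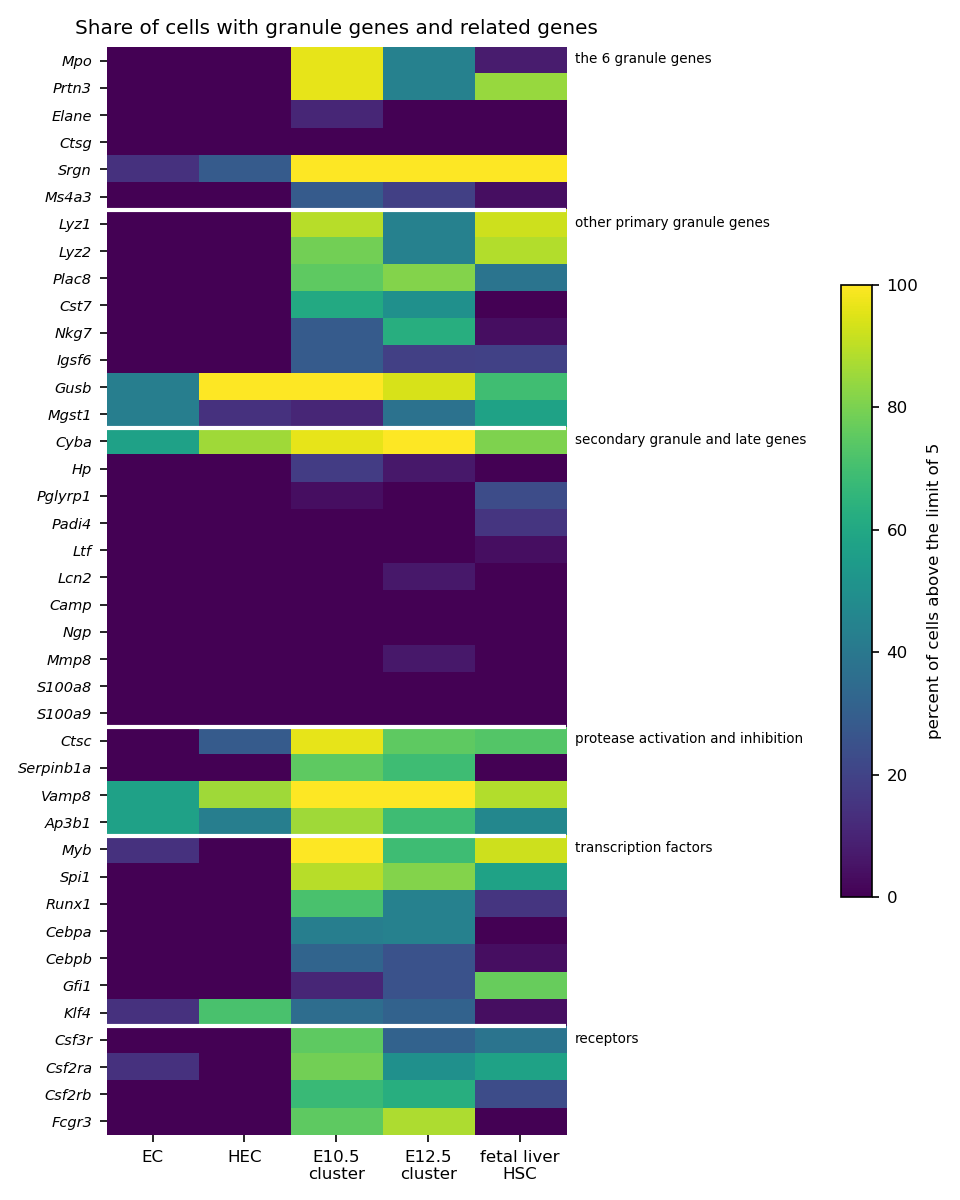
Percent of cells above the limit of 5 (colour) for the 6 granule genes and for related genes grouped by role (rows, top to bottom), in the 5 populations (columns). Bright rows in E10.5 clusters include Mpo, Prtn3, Srgn, Lyz1, Ctsc and Myb; the late genes Camp, Ngp, S100a8 and S100a9 are dark in each population, and in HSC Prtn3, Srgn, Lyz1, Lyz2 and Gfi1 are bright while Mpo, Serpinb1a, Cebpa and Fcgr3 are dark.

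The genes whose levels over all 84 cells were most like the mean of the 6 were Nfe2 (r = 0.77), Treml2 (0.76), Cmtm7 (0.76), Tuba4a (0.75), Emilin2 (0.75), Coro1a (0.74), Perp (0.74), Rac2 (0.74), Tspoap1 (0.73) and Adgrg1 (0.73). Of these 10, 5 were also among the 10 by Spearman's rho and 6 among the 10 after quantile normalization. Over the 28 E10.5 cluster cells alone they were Cmtm7 (0.79), Tuba4a (0.76), Yars2 (0.75), Cd44 (0.75), Tada1 (0.74), Cpsf4 (0.72), Agpat5 (0.72), Canx (0.71), Mlec (0.71) and Nap1l4 (0.71), with 2 and 5 shared. Over all cells such an r also carries the difference between endothelial and blood cells, and the values of a cell share its array.

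Tspoap1 is also the gene next to Mpo on chromosome 11 in the order of the RefSeq table. It was found in 24 of 28 cells in E10.5 clusters, 9 of 16 in E12.5 clusters, 0 of 26 HSC, 0 of 7 HEC and 0 of 7 EC, and at E12.5 in 6 of the 7 cells with Mpo and 3 of the 9 without, or 3 of 6 without the 3 cells with all macrophage markers. For Prtn3, which lies on chromosome 10, these counts were 7 of the 7 cells with it and 2 of the 9 without, or 2 of 6. The E12.5 counts of Tspoap1 thus do not single out Mpo, its neighbour. The mean of Tspoap1 was 8.71 in E10.5 clusters, 6.77 in E12.5 clusters and 2.43 in HSC. On the other side of Mpo, the peroxidase genes Lpo and Epx were found in 0 cells. Of the other measured neighbours of Mpo, Rnf43 was found in 3 E10.5 and 2 E12.5 cluster cells, and Mks1 in 1 and 2. Beside Prtn3 and Elane on chromosome 10, Plppr3 was found in 4 E10.5 cluster cells, 1 E12.5 cluster cell and 6 HSC, and Ptbp1, a splicing factor, in each cell. Beside Ctsg on chromosome 14, the granzyme and mast cell protease genes Mcpt4, Gzme, Gzmd and Gzmg were found in 0 cells, and Mcpt8, the nearest on 1 side, in 1 E12.5 cluster cell.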

How the data were processed

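Single-cell polyA RNA from 85 cells was amplified and hybridised to 1 array per cell. The deposited values are log2 signals, made by the authors with GCRMA (affy software), per the submitters' processing notes; no version is given in the sources used here. That method draws signals near background into a narrow band, so low levels cannot be ordered. Probe sets were named from GEO's platform annotation: of 45101, 34958 had 1 gene symbol, 932 several and 9211 are unnamed here. For genes with several probe sets the one with the highest mean over populations was used. Python 3.11.15 with numpy 2.4.6, pandas 2.3.3 and scipy 1.17.1 computed levels, shares with 95% exact intervals, and differences, and the code was tested on simulated data. Arrays correlating above 0.95 were averaged. For a share of 0 the limit given is 3 counts of the total, a simpler rule than the exact interval. The exact 95% upper limits for 0 were 41.0% of 7 cells, 20.6% of 16, 13.2% of 26 and 12.3% of 28. Named were the 6 genes, 4 measured genes per list with the largest difference between E10.5 cluster cells and HEC, list members a count turns on, the 10 most like genes and some of the neighbours. The neighbours of Srgn and Ms4a3 are not described. Members and lists were chosen with earlier results of these data known. Alternatives changed the scaling, the average, the limit and the cells kept.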

Additional observations from a re-analysis of the deposited data

Results flagged for a closer look

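Srgn in EC cell 1 read 11.48, far from the other 6 EC, whose highest value was 4.18; the gap was 0.797 of the whole range of the 7 EC, above Dixon's critical value of 0.568. Of 2 populations small enough for this test and with a value above background, 1 was named. The usual rate of about 1 in 20 by chance assumes normally distributed values; values at background lie in a narrow band here, so 1 cell with the gene among cells without it passes almost by construction, and HEC, with 2 such cells, did not pass. EC cell 1 had 11 of 13 endothelial markers and 0 of 9 macrophage markers.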

How the results depend on the processing

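No paired analysis was possible because the replicate numbers name single cells, and no label ties a cell of one population to a cell of another. The count of genes higher in HEC than in EC was 0 with shifted cells, quantile normalization, medians over cells or without the 6 cells that go against their population, and 0 to 1 leaving out each cell; the difference of Srgn ran from -0.094 to 2.31. With medians over cells Ms4a3 differed by -0.020 between E10.5 clusters and HEC, 0.011 between HSC and E12.5 and 0.040 between HSC and E10.5 cluster cells, and Prtn3 by 8.07 and Mpo by -2.02 between HSC and E12.5 cluster cells. Between E12.5 and E10.5 clusters medians gave -8.30 for Mpo and -9.10 for Prtn3. The count higher at E12.5 than at E10.5 was 1 with quantile normalization, medians or without the 6 cells. The count lower in HSC than in E12.5 clusters was 1 after quantile normalization, and 2 to 3 leaving out each cell. Prtn3 was in 100% of cells in E10.5 clusters at a limit of 4, and Elane in 0% at a limit of 8. Differences of the 6 genes kept their direction in 110 comparisons of settings and turned in 10, 7 of them where the difference as deposited was under 1 log2 unit; with a cell left out they kept it in 845 and turned in 2 (Srgn between HEC and EC without HEC cell 6, and Ms4a3 between E12.5 and E10.5 clusters, 0.037 without E10.5 cell 27). Ms4a3 between E12.5 and E10.5 clusters also turned with quantile normalization (0.18), medians (0.029) and without the 6 cells (0.062), Elane turned only with medians, and Srgn between HSC and E10.5 clusters with quantile normalization (0.74). Shares moved in 2 cases and not in 178. Counts of the related gene lists depended on the scaling: 42 of 80 moved by over 1.5 times with quantile normalization, 12 of 80 with shifted cells and 7 of 80 without the 6 cells. Using all probe sets changed nothing for genes with 1 probe set each. Counting every array as a cell changed nothing in comparisons without HSC, and leaving out the 6 cells changed nothing between E10.5 clusters and HEC. Such settings could not turn a direction, and they are counted among the 110 that kept it. Signal near background, and few cells, limit what Elane, Ctsg and Ms4a3 can show.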

Other observations

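Among 13 related peroxidase and granule protease genes on the array, Gzmb, granzyme B, was the only one measured. In E12.5 clusters 4 of 16 cells had it, and no E10.5 cluster cell, HSC, HEC or EC did. The mast cell protease Cma1 was found in 2 E12.5 cluster cells. Among late neutrophil genes, Pglyrp1 was found in 6 of 26 HSC and 1 of 28 E10.5 cluster cells, and Padi4 in 4 HSC and no E10.5 cluster cell. Mgst1, listed with the primary granule genes, was higher in HSC than in E10.5 clusters by 4.12, and was found in 15 HSC and 3 E10.5 cluster cells.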
